A study of Mus musculus with 18 samples.

Results

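The genes described here are 43 genes of the skeletal muscle sarcomere and of its calcium and energy supply, taken by name from a list. All 43 were found among the 52093 gene symbols of the expression files. RNA-seq had been done on 18 samples of male wild type C57BL/6 mice (C57BL/6J in a label, C57BL/6NTac in the study's supplement), 16 weeks old, after 12 weeks of high-fat feeding (HFD). There were 6 samples of mature adipocytes from inguinal white adipose tissue (iWAT), 6 of mature adipocytes from epididymal white adipose tissue (eWAT) and 6 of brown adipose tissue (BAT), and no chow-fed or mutant mice were analysed here. The white depots had been digested with collagenase and the floating cells kept, whereas BAT had been frozen whole, so BAT samples hold every cell type of the dissected piece. A comparison of a white depot with BAT is therefore also one of isolated cells with tissue, and these cannot be told apart. Samples are named by their tissue and the number in their title.

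A skeletal muscle fiber contracts when myosin heads of the thick filament pull on actin of the thin filament. Troponin and tropomyosin on the thin filament open the myosin sites when calcium is released from the sarcoplasmic reticulum, and a pump returns the calcium. Fast and slow fibers use different genes for most of these parts. Mature adipocytes do not build sarcomeres, although some of the genes, such as Tpm1 and Des, are also used by other cells. Brown adipocytes and skeletal muscle share progenitors that once expressed Myf5, and interscapular BAT lies against muscle.

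Ucp1 set BAT apart, and Adipoq was found in every tissue. Ucp1, the uncoupling protein of brown fat, was at 1465 to 2136 RPKM in BAT, at most 2.98 in iWAT adipocytes and at most 0.37 in eWAT adipocytes. Adipoq, an adipocyte gene, was at 840 to 1297, 150 to 579 and 189 to 268 RPKM in iWAT, eWAT and BAT. Genes of macrophages were read in the white fractions as well. A list of 6 such genes summed to 2564 to 4134 RPKM in eWAT, 452 to 891 in iWAT and 24.5 to 48.4 in BAT. The fractions are called adipocytes here by their label. RPKM is the read count scaled to the length of the transcript and to the reads of the library. The reads on gene rows numbered 24655056 to 42518483 per sample. The myogenic regulators that mark muscle precursors were near 0 in every tissue. Myod1, Myog, Myf5 and Pax7 had means of at most 0.024 RPKM in each, and Myf6, the one found in mature fibers, had 0.11 RPKM in BAT and none in the white depots.

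Promoters of 4 genes are shown because the genes differ in the way this report turns on. Ckm, the muscle creatine kinase, was used as the reference for the other genes. Acta1, the skeletal muscle α-actin, and Myh4, the fast IIb myosin heavy chain, followed it in BAT. Tpm1, a tropomyosin, had its highest RPKM in eWAT adipocytes and spread little within each tissue. Whether its difference between eWAT adipocytes and BAT passed a test depended on the settings. Each line gives the 200 bases before the first base of the gene's row, 5′ to 3′ in the gene's direction, on the mm9 (NCBIM37) build. The windows are chr7:19996243-19996442 on the + strand for Ckm, chr8:126418652-126418851 on the - strand for Acta1, chr11:67051114-67051313 on the + strand for Myh4 and chr9:66897214-66897413 on the - strand for Tpm1. Capitals mark 4 motifs, searched on both strands: the E-box CAGCTG, the MCAT motif CATTCC bound by factors of the TEAD family, the core promoter motif TATAAA, and the CArG box of serum response factor.
Ckm: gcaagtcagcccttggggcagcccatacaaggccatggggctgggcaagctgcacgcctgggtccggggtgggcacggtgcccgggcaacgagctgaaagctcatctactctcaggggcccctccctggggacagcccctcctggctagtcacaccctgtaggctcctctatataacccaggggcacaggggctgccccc
Acta1: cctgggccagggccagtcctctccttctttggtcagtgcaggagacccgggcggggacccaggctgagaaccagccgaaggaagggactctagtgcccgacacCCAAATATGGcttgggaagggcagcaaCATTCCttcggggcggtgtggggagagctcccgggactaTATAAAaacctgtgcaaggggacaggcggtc
Myh4: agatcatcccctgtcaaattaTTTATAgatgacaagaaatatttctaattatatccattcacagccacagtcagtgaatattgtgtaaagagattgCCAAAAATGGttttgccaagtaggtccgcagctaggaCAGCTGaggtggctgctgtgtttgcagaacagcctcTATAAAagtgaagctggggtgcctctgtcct
Tpm1: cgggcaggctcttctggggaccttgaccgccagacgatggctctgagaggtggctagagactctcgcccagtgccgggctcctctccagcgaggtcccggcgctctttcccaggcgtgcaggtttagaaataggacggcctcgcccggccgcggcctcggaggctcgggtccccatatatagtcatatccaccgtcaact
The windows of Acta1 and Myh4 each held a TATAAA that began 31 bases before the start. A CArG box began 97 bases before the start of Acta1 and 104 bases before that of Myh4. No match was found in the windows of Ckm and Tpm1, which says only that these letters are not there. Of the windows of the 43 genes, 13 held CAGCTG, 10 held CATTCC, 8 held TATAAA and 4 held a CArG box, or 30.2%, 23.3%, 18.6% and 9.3%. Of 52082 windows of all symbols, 9.57%, 9.82%, 13.2% and 1.08% did. No test was made of these shares. The rows of the genes used most lie as follows on mm9, each from the first to the last base of its exons, with Ckm at chr7:19996443-20006932 (+ strand), Acta1 at chr8:126415667-126418651 (- strand), Myh4 at chr11:67051314-67073948 (+ strand), Tpm1 at chr9:66870397-66897213 (- strand), Atp2a1 at chr7:133589372-133606622 (- strand), Myl1 at chr1:66970869-66991978 (- strand), Des at chr1:75356904-75365154 (+ strand) and Casq2 at chr3:101890338-101950437 (+ strand).

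In BAT, 24 of the 43 genes had a mean of at least 1 RPKM, against 10 in iWAT adipocytes and 7 in eWAT adipocytes. Counts at the other end were 2, 10 and 17 genes with at most 3 reads in each of the 6 samples. The 2 in BAT were Tnnt2, the cardiac troponin T, and Sln, sarcolipin, an inhibitor of the calcium pump. Summed over the 43 genes, the level was 34.0 to 256 RPKM in BAT, 34.4 to 52.7 in iWAT adipocytes and 29.1 to 35.1 in eWAT adipocytes.

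**Figure D1:**
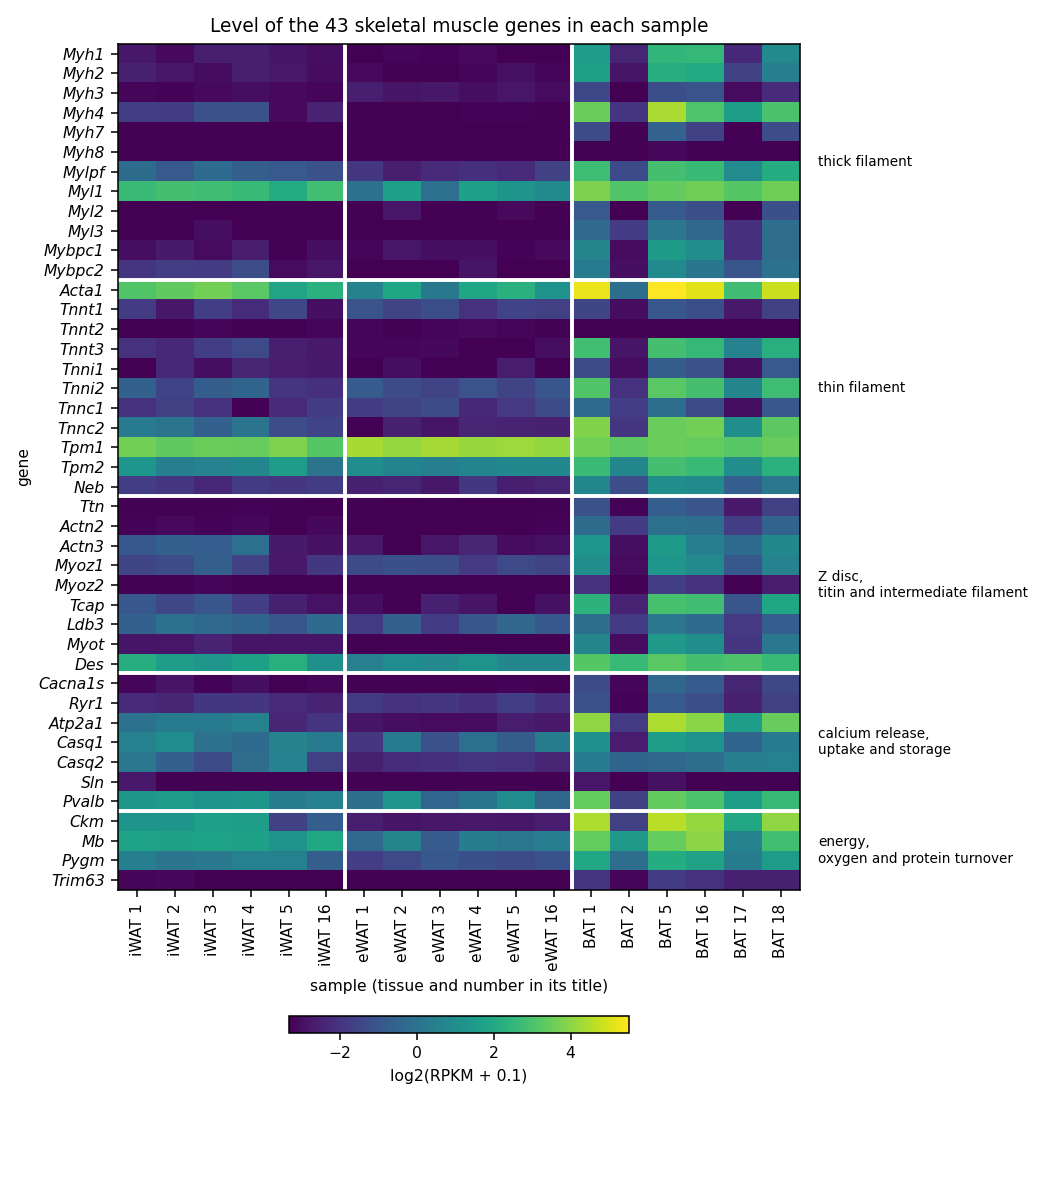
Level of each of the 43 genes (rows, grouped by role) in each of the 18 samples (columns), as log2(RPKM + 0.1). BAT 1, 5, 16 and 18 are bright for most genes, BAT 2 is dark and BAT 17 lies between, while Myl1, Tpm1 and Des are bright in BAT 2 as well.

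The samples of BAT differed from each other more than those of the white depots. In CPM, the read count scaled to the reads of the library, the 43 genes together came to 617, 779, 591 and 439 in BAT 1, 5, 16 and 18, but 204 in BAT 17 and 128 in BAT 2. The value in BAT 2 lay within the 113 to 172 CPM of iWAT adipocytes and below the 148 to 166 of eWAT adipocytes. Results that rest on BAT are therefore also given without BAT 2 and 17. As these samples were picked for low values of the same genes, such results describe the other BAT samples and are no separate test. CPM and RPKM lack the scaling factor per library (TMM) that the tests below use. In the comparison of iWAT adipocytes with BAT it averaged 1.35 and 0.745, which raises BAT against the white depot. Close orders between BAT 2 and white samples, here and below, may not hold with it. The marker lists of adipocytes and brown adipocytes did not set BAT 2 and 17 below the others. They summed to 5971 and 7230 RPKM for 8 adipocyte genes, against 5873 to 6803 in the other BAT samples, and to 3870 and 3912 RPKM for 8 brown adipocyte genes, against 2707 to 3916. The 12 smooth muscle genes summed to 43.1 and 39.1 RPKM, against 34.9 to 44.1. The mass of muscle in the dissected pieces was not measured, and in tissue fewer muscle cells and less RNA per cell cannot be told apart.

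Of the energy and oxygen genes, Ckm was at 0.220 RPKM in BAT 2 and 3.79 in BAT 17, with a median of 16.9 and a highest value of 24.2 in BAT 5. In iWAT adipocytes it ran from 0.234 through a median of 2.29 to 3.12, and in eWAT adipocytes from 0.0418 to 0.0687, which is 2 to 4 reads. By RPKM, BAT 2 thus lay below all iWAT samples, and BAT 17 above them. Within iWAT adipocytes, samples 5 and 16 (0.234 and 0.521 RPKM) stood apart from the other 4 (2.28 to 3.12). Mb, the oxygen-binding myoglobin, had means of 8.01 ± 5.4 (SD, n = 6) in BAT, 3.22 ± 0.56 in iWAT and 1.04 ± 0.385 in eWAT. For Pygm, the muscle glycogen phosphorylase, the means were 2.70 ± 1.4, 1.10 ± 0.33 and 0.324 ± 0.077 RPKM. Trim63, the ubiquitin ligase MuRF1, stayed at or below 0.187 RPKM in all samples.

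Thick filament genes of fast fibers led in BAT. Myh4 had a mean of 8.63 ± 7.3 RPKM, Myh1 (IIx myosin) 2.68 ± 2.5 and Myh2 (IIa myosin) 2.21 ± 1.95. Slow Myh7 reached 0.240 ± 0.22, embryonic Myh3 0.189 ± 0.17 and perinatal Myh8 at most 4 reads. Among these 6 heavy chains, Myh4 made up 44.4 to 89.5% of the summed RPKM in each BAT sample. The heavy chains are similar in sequence, and how reads shared between them were counted is not given in the sources used here. In iWAT adipocytes the means of Myh4, Myh1 and Myh2 were 0.201 ± 0.14, 0.0442 ± 0.021 and 0.0477 ± 0.022 RPKM, and in eWAT adipocytes Myh4 and Myh1 had at most 1 and 3 reads per sample and Myh2 had 0.0115 ± 0.012.

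The light chains split. Mylpf, the fast regulatory light chain, had 4.47 ± 2.9 RPKM in BAT, 0.553 ± 0.17 in iWAT and 0.137 ± 0.058 in eWAT, with 0.293 in BAT 2. Myl1, the fast essential light chain, had lowest, median and highest values of 8.61, 11.1 and 13.7 in BAT, 4.27, 6.71 and 7.37 in iWAT, and 0.849, 2.02 and 3.07 in eWAT. All BAT samples of Myl1, BAT 2 included, were above all iWAT samples, and these were above all eWAT samples. The slow chains Myl2 and Myl3 had 0.266 ± 0.21 and 0.595 ± 0.355 RPKM in BAT and at most 3 reads in any white sample. Mybpc1, slow myosin-binding protein C, was at 1.19 ± 1.1 RPKM in BAT, 0.0309 ± 0.023 in iWAT and 0.022 ± 0.014 in eWAT, and its fast form Mybpc2 at 0.877 ± 0.61, 0.159 ± 0.11 and 0.00694 ± 0.017.

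In the thin filament, Acta1 was at 0.806 RPKM in BAT 2 and 7.0 in BAT 17, with a median of 31.4 and a highest value of 45.8. It ran from 3.52 to 12.5 RPKM in iWAT, with a median of 9.08, and from 1.09 to 4.77 in eWAT, with a median of 2.91. By RPKM, BAT 2 thus had less Acta1 than any white sample, though the lowest eWAT sample (1.09) was close and the order rests on the scaling. The fast troponins Tnnt3, Tnni2 and Tnnc2 had 4.42 ± 3.1, 5.66 ± 3.9 and 8.35 ± 5.85 RPKM in BAT. Their means in iWAT adipocytes were 0.144 ± 0.091, 0.371 ± 0.22 and 0.702 ± 0.37, and in eWAT 0.01 ± 0.0092, 0.349 ± 0.097 and 0.0614 ± 0.035. Fast forms made up 94.2 to 98.0% of the summed RPKM of 6 fast and slow troponins in 5 BAT samples and 58.0% in BAT 2. Slow Tnnt1, Tnni1 and Tnnc1 had 0.221 ± 0.16, 0.277 ± 0.21 and 0.421 ± 0.31 RPKM in BAT. In GENCODE vM1, 74.0% of the exon bases of Tnnc2 are shared with Ube2c, so its counts are uncertain. The same holds for Ckm, with 31.9% shared with A930016O22Rik, and for Atp2a1, with 21.9% shared with Rabep2. Mb shares only 5.11% with Apol6, but Apol6 had means of 73.4, 26.1 and 15.5 RPKM in iWAT, eWAT and BAT. Those of Mb were 3.22, 1.04 and 8.01, so reads of Apol6 may make up part of its counts, above all in the white depots. How large a part was not tested, and this bears on every result given here for Mb.

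Among the tropomyosins, the means of Tpm2 followed this order and those of Tpm1 did not. Tpm1 was at 9.28, 10.9 and 12.4 RPKM in BAT (lowest, median and highest), at 8.92, 11.2 and 14.0 in iWAT and at 17.1, 18.1 and 20.7 in eWAT. Its RPKM values in eWAT were above all others, and those of iWAT and BAT overlapped. Tpm2 had 4.76 ± 2.4, 1.74 ± 0.70 and 1.58 ± 0.21 RPKM in BAT, iWAT and eWAT. For Neb, the giant thin filament protein nebulin, the row with the highest level covers only 2018 bases of transcript, and it had 1.21 ± 0.70, 0.168 ± 0.038 and 0.089 ± 0.041 RPKM.

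Among Z disc genes, Des was highest. Desmin, its product, forms the intermediate filaments of muscle and is also made by smooth muscle and pericytes. Des was at 6.15, 7.84 and 9.5 RPKM in BAT, 2.06, 3.02 and 4.63 in iWAT and 1.33, 1.65 and 2.24 in eWAT, and BAT 2 (6.15) was close to BAT 18 (6.21). Tcap, the titin cap, had 3.99 ± 3.2 RPKM in BAT, 0.237 ± 0.17 in iWAT and 0.028 ± 0.027 in eWAT. Actn3, the α-actinin of fast fibers, had 1.49 ± 1.0, 0.410 ± 0.31 and 0.0404 ± 0.031, Myoz1 1.36 ± 0.94, 0.259 ± 0.16 and 0.282 ± 0.062, and Myot, myotilin, 1.24 ± 1.0 and 0.0487 ± 0.017 in BAT and iWAT and no reads in eWAT. Ttn, the titin spring, had 0.260 ± 0.21 RPKM in BAT, on up to 1574 reads, and at most 28 reads in any white sample. Actn2 had 0.574 ± 0.30 RPKM and Myoz2 0.0918 ± 0.086 in BAT, both with at most 3 reads in each white sample, whereas Ldb3 had 0.585 ± 0.35, 0.660 ± 0.16 and 0.407 ± 0.19 RPKM in BAT, iWAT and eWAT.

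Of the calcium genes, Atp2a1, the fast-fiber calcium pump, was at 0.186 RPKM in BAT 2 and 2.91 in BAT 17, with a median of 13.2 and a highest value of 21.6. It ran from 0.095 to 1.38 in iWAT, with a median of 0.998, and from 0.0193 to 0.058 in eWAT. Again iWAT 5 and 16 were lowest, at 0.095 and 0.156 RPKM. Pvalb, the calcium buffer parvalbumin, had 6.40 ± 4.2, 2.08 ± 0.62 and 1.23 ± 0.715 RPKM in BAT, iWAT and eWAT. Casq1, which stores calcium in fast fibers, had 1.51 ± 1.1, 1.27 ± 0.40 and 0.721 ± 0.45, and Casq2, the form of cardiac and slow muscle, 0.989 ± 0.32, 0.721 ± 0.45 and 0.119 ± 0.033. The voltage sensor Cacna1s and the release channel Ryr1 had 0.306 ± 0.24 and 0.244 ± 0.18 RPKM in BAT, and Ryr1 had 0.121 ± 0.039 in iWAT and 0.161 ± 0.033 in eWAT.

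**Figure D2:**
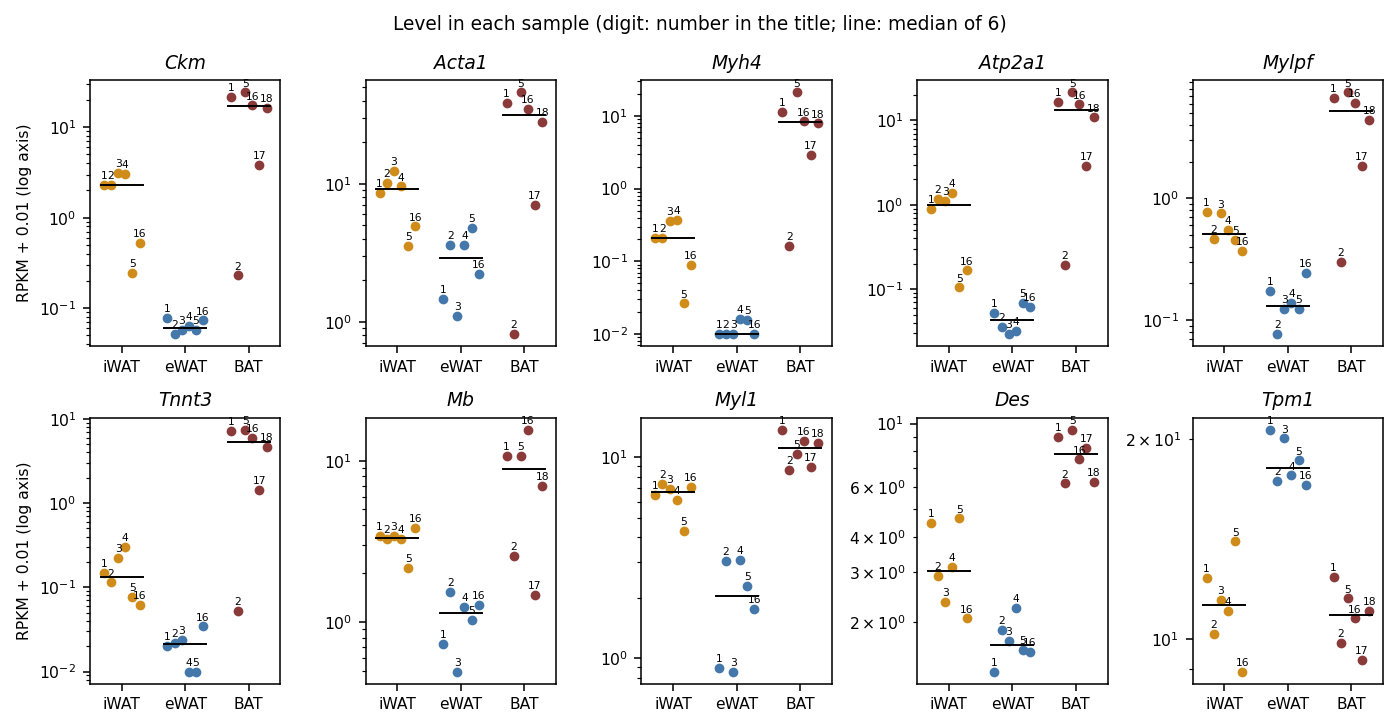
RPKM plus 0.01 (log axis) of 10 genes in each sample of iWAT adipocytes, eWAT adipocytes and BAT, each point labelled with the number in the sample's title and the line at the median of 6. Ckm, Acta1, Myh4, Atp2a1, Mylpf and Tnnt3 run over a wide range in BAT with BAT 2 lowest, while Myl1, Des and Tpm1 stay within a narrow one.

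The first comparison asked how iWAT adipocytes and BAT differ in these genes. Of the 35 genes whose counts averaged 10 or more, 32 were higher in BAT and 0 were higher in iWAT adipocytes by edgeR's quasi-likelihood test at an adjusted p of 0.05. The average was taken over both tissues, so genes near 0 in iWAT adipocytes entered through BAT. Of these, 3 (Myh7, Myl3 and Actn2) had at most 3 reads in each iWAT sample. Others had few, such as Myh3 (1 to 5 reads), Myot (3 to 6) and Cacna1s (0 to 7). Genes that entered this way could only be called toward BAT. They are part of the 32, of the medians and of the counts by role below. DESeq2 also called 32 and 0, and at an unadjusted p of 0.05 edgeR gave 32 and 0. Over all 19745 genes tested, 37.2% were higher in BAT and 38.1% in iWAT adipocytes. The median log2 fold change, iWAT over BAT, was -3.50 over the 35 genes (-3.45 with the genes at the floor set to their bound) and 0.01 over all genes. The 8 genes not tested were Myh8, Myl2, Tnnt2, Tnni1, Tnnc1, Myoz2, Sln and Trim63. Without BAT 2 and 17, 36 of 36 genes tested were higher in BAT, and without iWAT 5 and 16, 32 of 36 were. The rise without BAT 2 and 17 follows in part from leaving out the samples where these genes were low. Shares over all genes are not given for these subsets.

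By role, those higher in BAT were 10 of 10 thick filament genes, 7 of 8 thin filament genes, 7 of 8 Z disc genes, 5 of 6 calcium genes and 3 of 3 energy genes. Among the largest differences, Myh7 and Myl3 had at most 1 read in each iWAT sample, which makes them at least 28.4-fold and at least 10.7-fold higher in BAT, taking 3 reads per library as the floor. The log2 fold change, iWAT over BAT, was -6.65 ± 0.89 (SE) for Ttn (edgeR adjusted p = 5.82e-06). Ckm gave -3.50 ± 0.76 (adjusted p = 0.000633), Acta1 -2.30 ± 0.63 (adjusted p = 0.00389) and Mb -1.95 ± 0.46 (adjusted p = 0.00126). These differ in size by gene, and all are toward BAT. Myl1 and Des, whose samples did not overlap, gave -1.38 ± 0.16 (adjusted p = 1.55e-06) and -1.88 ± 0.18 (adjusted p = 1.66e-07).

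Not past the threshold were Tnnt1 (-1.14 ± 0.59, adjusted p = 0.0937), Casq1 (-0.87 ± 0.53, adjusted p = 0.146) and Ldb3 (-0.43 ± 0.39, adjusted p = 0.334). Without BAT 2 and 17 these came to -1.74, -1.40 and -0.91, with edgeR adjusted p of 0.00275, 0.000451 and 0.00279. Without BAT 2 alone, Tnnt1 and Casq1 passed, at -1.43 and -1.16 (adjusted p = 0.0219 and 0.00814), and without BAT 17 alone Tnnt1 passed, at -1.38 (adjusted p = 0.0398). Ryr1 (-1.63 ± 0.57, adjusted p = 0.0175) no longer passed without BAT 5 (-1.34, adjusted p = 0.052). Tpm1 was lower in iWAT adipocytes by TMM scaling (-0.55 ± 0.11, edgeR adjusted p = 0.000194), but it changed sign to 0.32 (adjusted p = 0.0148) without scaling beyond the total count. That setting moved the median of all genes from 0.01 to 0.87, so the direction of Tpm1 rests on the scaling. By limma on log2(RPKM + 0.1), Acta1 (-0.97, adjusted p = 0.268), Mb (-0.91, adjusted p = 0.0814), Actn3, Ryr1, Casq2 and Pvalb did not pass.

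Against eWAT adipocytes, 33 of 36 genes tested were higher in BAT and 0 were higher in eWAT adipocytes, by edgeR and by DESeq2. Among the 33, 10 genes had at most 3 reads in each eWAT sample. Others had few, such as Ckm (2 to 4 reads), Atp2a1 (2 to 6) and Mybpc2 (0 to 4). Genes this low in eWAT adipocytes entered the test through BAT and could only be called toward BAT. At an unadjusted p of 0.05 edgeR gave 34 and 0. The shares over all 20076 genes were 41.4% higher in BAT and 41.1% higher in eWAT adipocytes, and the median log2 fold change, eWAT over BAT, was -5.08 over the 36 genes (-4.48 with 10 genes at the floor set to their bound) and -0.02 over all. Without BAT 2 and 17, 35 of 36 were higher in BAT, which again follows in part from the choice of samples. The share over all genes is not given for this subset. Both comparisons use the same 6 BAT samples.

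By fitted values, which at the floor are no measure of size, Myh4, Myot and Myh1 ranked first. With eWAT adipocytes at the floor, they were at least 717-fold, 41.8-fold and 242-fold higher in BAT. Tnnt3 and Tnnc2, fast troponins, were at least 150-fold and 92.5-fold higher. Ckm had a log2 fold change of -8.53 ± 1.02 (edgeR adjusted p = 1.48e-06), Atp2a1 one of -8.84 ± 1.04 (adjusted p = 1.18e-06) and Acta1 one of -3.85 ± 0.70 (adjusted p = 0.000115). With 2 to 4 and 2 to 6 reads in the eWAT samples, Ckm and Atp2a1 also entered through BAT, and their values are rough. Des (-2.77 ± 0.15, adjusted p = 1.41e-10) and Casq2 (-3.66 ± 0.26, adjusted p = 3e-09) had small errors, and their samples did not overlap.

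Tnnt1 (-0.27 ± 0.50, adjusted p = 0.62), Tpm1 (0.18 ± 0.10, adjusted p = 0.10) and Ryr1 (-1.20 ± 0.55, adjusted p = 0.0562) did not pass. Tpm1 was higher in eWAT adipocytes without scaling beyond the total count, at 1.11 (edgeR adjusted p = 1.32e-08), where the median of all genes was 0.89. It was also higher with limma at a pseudocount of 0.1 (0.78, limma adjusted p = 7.56e-07) or 1 (0.73, limma adjusted p = 7.24e-07). Limma used RPKM without TMM scaling, and the median of all genes was then 0.48 and 0.25. With TMM scaling and no filter on low counts, Tpm1 was higher too (0.29, edgeR adjusted p = 0.0229). Ryr1 passed without BAT 2 (-1.49, adjusted p = 0.0014) or without BAT 17 (-1.42, adjusted p = 0.0254). The call of Ldb3 (-1.13 ± 0.45, adjusted p = 0.0318) was lost without eWAT 1, eWAT 3, BAT 1, BAT 5 or BAT 16, with values of -0.88 to -1.02. That of Casq1 (-1.68 ± 0.63, adjusted p = 0.0223) was lost without BAT 5 (-1.38) or BAT 16 (-1.48), and that of Tnnc1 (-1.44 ± 0.52, adjusted p = 0.0193) without BAT 5 (-1.17). Without scaling beyond the total count these 3 came to -0.18, -0.71 and -0.53 (edgeR adjusted p = 0.687, 0.248 and 0.326), and limma called none of them.

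**Figure D3:**
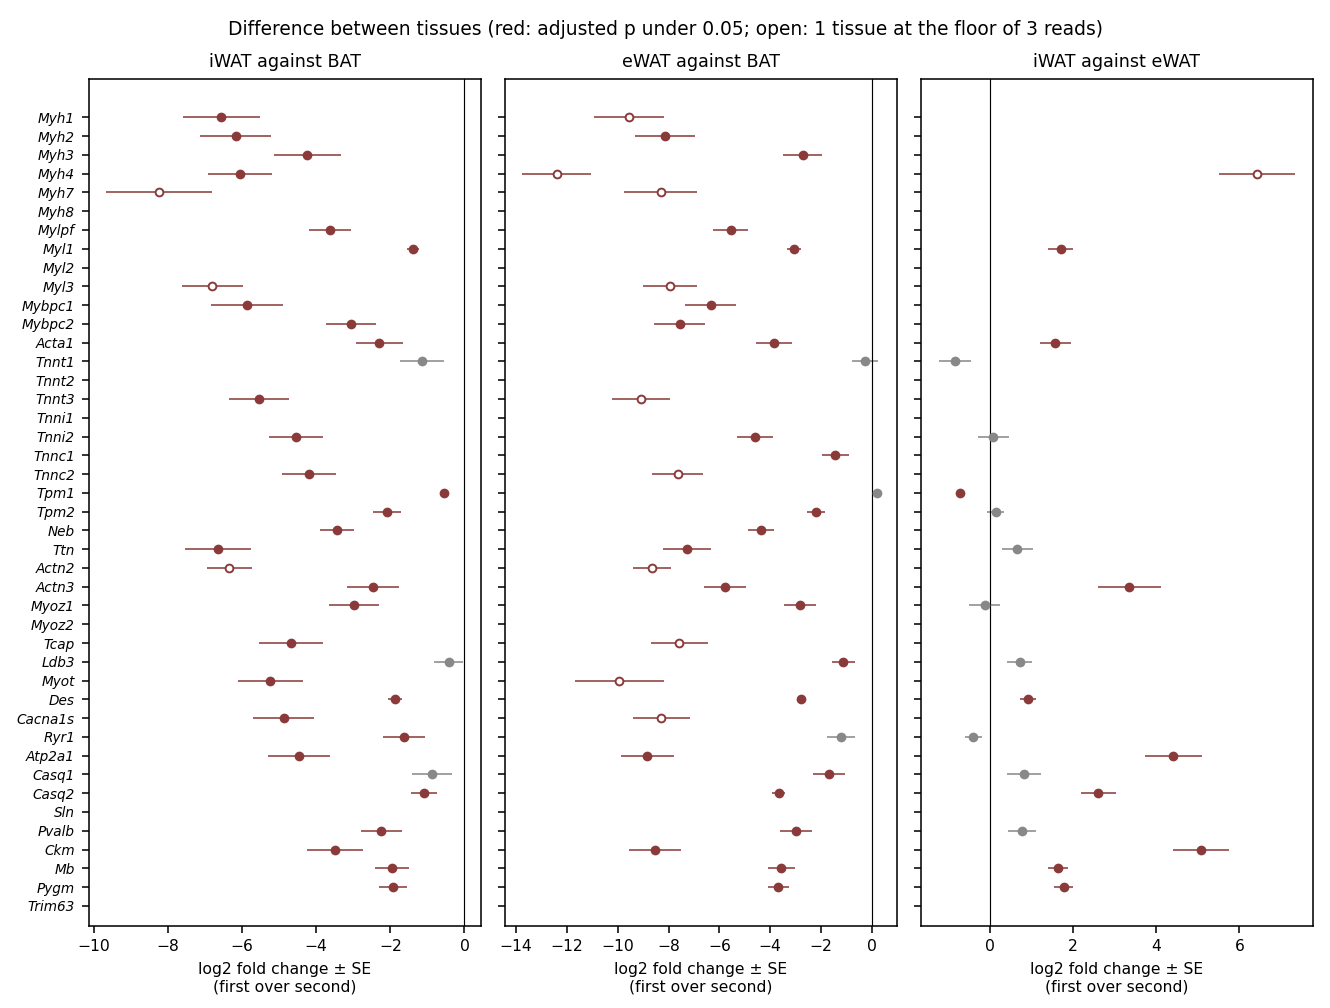
Log2 fold change ± SE of each tested gene in the 3 comparisons, first tissue over second, with red for an edgeR adjusted p under 0.05, grey for others and open circles where 1 tissue had at most 3 reads in every sample. Nearly all genes lie left of 0 against BAT, and iWAT against eWAT adipocytes has 10 red genes to the right and Tpm1 to the left.

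The third comparison set the white depots against each other. Only 20 of the 43 genes had enough reads. Of these, 10 were higher in iWAT adipocytes and 1 in those of eWAT (edgeR), against 34.1% and 34.5% of 19623 genes. The 10 were Myh4, Myl1, Acta1, Actn3, Des, Atp2a1, Casq2, Ckm, Mb and Pygm. Myh4, with at most 1 read in each eWAT sample, was at least 10.7-fold higher in iWAT adipocytes. It entered the test through its iWAT reads and could only be called toward iWAT. The same holds for Ckm, Atp2a1 and Actn3, with 2 to 4, 2 to 6 and 0 to 7 reads in the eWAT samples. These genes are part of the 10. Ckm had a log2 fold change, iWAT over eWAT, of 5.08 ± 0.68 (edgeR adjusted p = 2.77e-05) and Atp2a1 one of 4.41 ± 0.69 (adjusted p = 9.28e-05). Acta1, Mb, Pygm and Myl1 lay between 1.57 and 1.77. Tpm1 was the gene higher in eWAT adipocytes (-0.71 ± 0.09, adjusted p = 1.08e-05), and all 6 eWAT samples were above all 6 iWAT samples.

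Without iWAT 5 and 16, where Ckm was low, 13 of 21 genes were higher in iWAT and 1 was higher in eWAT adipocytes. As these samples were left out for low Ckm, the rise follows in part from that choice. With lane 1 alone the numbers were 10 and 1 of 19, and with lane 2 alone 13 and 1 of 22, where Actn3 (3.35 ± 0.75 over both lanes, edgeR adjusted p = 0.00149) no longer passed (3.17, adjusted p = 0.0949). Shares over all genes are not given for these subsets or without iWAT 5 and 16. BAT had been sequenced in other lanes than the white depots, so lane and tissue cannot be told apart there. Tnnt1, Tnni2, Tpm2, Ttn, Myoz1, Ldb3, Ryr1, Casq1 and Pvalb did not pass. Of these, Ldb3 (0.71 ± 0.30, adjusted p = 0.0509), Pvalb (0.77 ± 0.34, adjusted p = 0.0574) and Casq1 (0.82 ± 0.40, adjusted p = 0.0827) passed toward iWAT when single samples were left out, among them eWAT 2 (0.83, 1.07 and 1.03), and Ttn did without eWAT 16 (0.92, adjusted p = 0.0428). Toward eWAT, Tnnt1 passed without iWAT 5 (-1.09, adjusted p = 0.0282) or eWAT 4 (-0.96, adjusted p = 0.0449), and Ryr1 without iWAT 3 (-0.53, adjusted p = 0.0295) or iWAT 4 (-0.51, adjusted p = 0.0401).

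How far the genes vary together was examined over the 6 BAT samples, as Pearson's r of log2(RPKM + 0.1) with that of Ckm. All 36 other genes with a mean BAT count of at least 10 had a positive r, with a median of 0.92, against -0.30 over all genes. An r of at least 0.9 was reached by 23 of the 36, against 0.535% of 19242 genes. Acta1, Tnnt3, Tnni2, Atp2a1, Mylpf and Myoz1 had an r of 0.995 to 0.999, and each of these also put the 6 samples in the order of Ckm (Spearman's rho of 1.0). The exact permutation p of Acta1 was 0.00139, the smallest that 720 orders of 6 samples allow, and 0.594 after Benjamini-Hochberg adjustment. No gene passed an adjusted p of 0.05, and 31 of the 36 had an unadjusted exact permutation p under 0.05, as did 1044 of the 19242. BAT 2 and 17 were farthest from the median of Ckm. Without them the median r was 0.78 and 13 of 36 genes were at 0.9 or above, so the relation rests in part on those samples. The share over all genes is not given for 4 samples, where a high r is reached more easily. The count of 13 therefore has no background. Over the other 4, Tnni2 had an r of 0.99, Myoz1 0.96, Myh4 0.95 and Acta1 0.94. Lane 3 held 2 BAT samples and lane 4 held 4, too few for an r within lanes.

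The lowest r over the 6 samples were those of Casq2 (r = 0.41, rho = -0.03, exact permutation p = 0.492), Des (0.57), Tnnc1 (0.58), Tpm1 (0.70), Mb (0.75) and Myl1 (0.79). Without BAT 2 and 17, r was 0.95 for Des and 0.89 for Tnnc1, so their low r rests on those samples. It was then 0.66 for Tpm1, 0.44 for Myh1, 0.42 for Tnnc2, 0.17 for Mb, -0.24 for Myl1 and -0.55 for Casq2. Casq2 was highest in BAT 18 (1.37 RPKM) and 17 (1.27) and lowest in BAT 2 (0.616) and 5 (0.688). In BAT 2, where Ckm was at 0.220 RPKM, Myl1 was at 8.61, Tpm1 at 9.84, Des at 6.15 and Mb at 2.56. These 4 genes made up most of the 34.0 RPKM summed over the 43 genes there. Myl1 was 39.2 times Ckm in BAT 2 and 0.429 to 0.714 times Ckm in BAT 1, 5, 16 and 18, with 2.36 in BAT 17. Acta1, in contrast, was 3.66 times Ckm in BAT 2 and 1.70 to 2.01 times in the other 5.

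The makeup of the muscle genes also varied between BAT samples. In BAT 17 the slow Myh7 had no reads and Myh4 made up 89.5% of the 6 heavy chains, and Myh1 and Myh2 were at 3.0% and 6.93%. In BAT 16 the shares of Myh4, Myh1 and Myh2 were 44.4%, 30.7% and 21.6%. Myh4 over Ckm was 0.48 to 0.87 in BAT and 0.07 to 0.15 in iWAT adipocytes, with no overlap, and Atp2a1 over Ckm was 0.66 to 0.89 and 0.30 to 0.51. Actn3 over Ckm overlapped, with 0.08 to 0.20 in BAT and 0.06 to 0.28 in iWAT adipocytes. These ratios are descriptions, with no test.

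**Figure D4:**
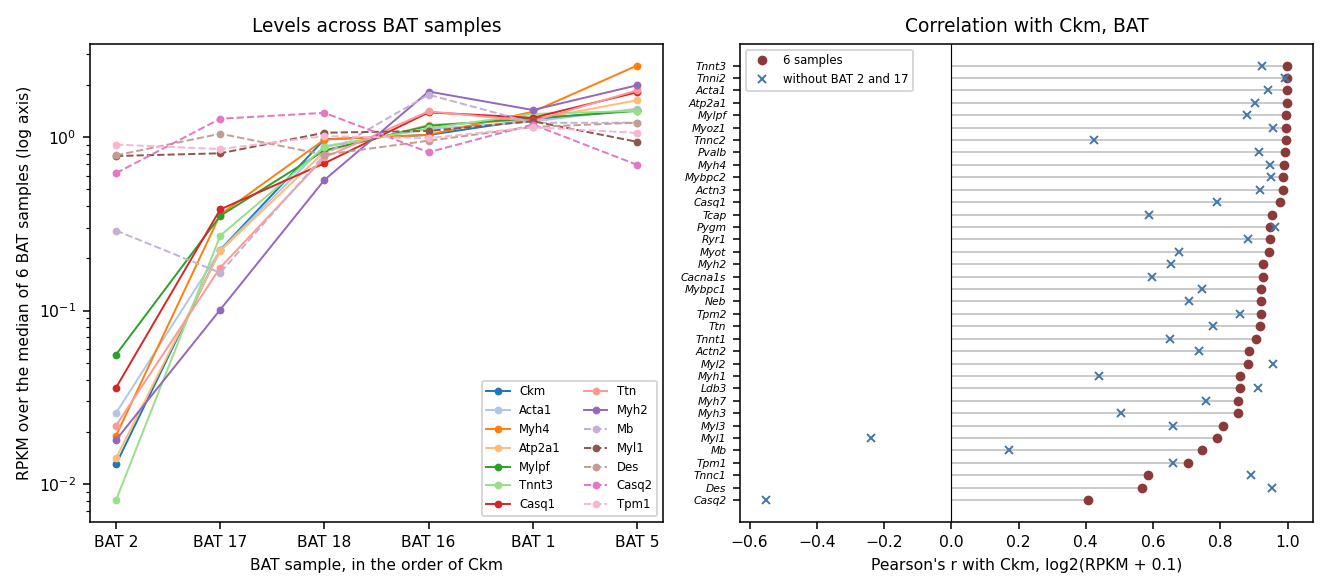
Left, RPKM of 14 genes over each gene's median of the 6 BAT samples (log axis), in the order of Ckm, with solid lines for 9 genes that lie below 0.1 in BAT 2 and above 1 in BAT 5 and dashed lines for Mb, Myl1, Des, Casq2 and Tpm1. Right, Pearson's r with Ckm of 36 genes over 6 BAT samples (red) and without BAT 2 and 17 (blue crosses), where Casq2 and Myl1 fall below 0.

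Among genes outside the 43 with a mean of at least 1 RPKM in BAT, the 10 with the highest r with Ckm were LOC100503495, A930016O22Rik, AK042040, Ube2c, LOC100503103, Apobec2, ENSMUSG00000081543, LOC100504567, Pgam2 and ENSMUSG00000035129 (r of 0.970 to 0.999). Rows of the first 4 overlap Ckm, Ckm, Mylpf and Tnnc2, so their reads may be the same. Apobec2, a muscle gene of the cytidine deaminase family, was at 0 RPKM in BAT 2, 0.232 in BAT 17 and 1.35 to 2.25 in the others, and LOC100503103 overlaps it. Pgam2, the muscle phosphoglycerate mutase of glycolysis, went from 0.687 in BAT 2 and 1.25 in BAT 17 to 3.27 to 3.91. LOC100504567 moved only from 10.8 to 11.3 RPKM, and the 2 genes without names from 1.39 to 2.37 and from 3.87 to 9.03.

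Other lists were counted in the same way. Of 19 further sarcomere genes tested for r, 8 reached 0.9 with Ckm in BAT (Myom1, Xirp2, Nrap, Lmod2, Lmod3, Klhl41, Cmya5 and Myoz3). So did 4 of 16 genes of excitation and contraction coupling (Jsrp1, Hrc, Clcn1 and Mylk2) and 4 of 14 of muscle metabolism (Eno3, Pgam2, Ampd1 and Phkg1). None of 7 regulators, 10 genes of the membrane and neuromuscular junction, 5 cardiac genes, 10 smooth muscle genes, 8 adipocyte, 8 brown adipocyte, 6 macrophage, 5 endothelial, 6 Schwann cell and 5 erythroid genes did. Genes with high levels in the first 3 lists did not follow Ckm to that degree. Tpm3 (20.3 ± 2.7 RPKM) and Mybph (7.22 ± 0.49), Atp2a2 (14.8 ± 3.2), and Aldoa (584 ± 119) and Ldha (172 ± 26) had r of -0.44, 0.42, -0.73, 0.63 and 0.45.

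The shares over all genes given above (37.2% and 38.1%, 41.4% and 41.1%, and 34.1% and 34.5%) are the background of the counts that follow, and several lists, such as the regulators and the membrane genes against iWAT adipocytes, were near them. Against BAT, the further sarcomere genes were higher in BAT for 12 of 17 and higher in iWAT adipocytes for 2, and for eWAT adipocytes the counts were 13 and 4 of 17. Genes of excitation and contraction coupling gave 10 and 4 of 14 against iWAT and 10 and 2 of 15 against eWAT adipocytes, and those of muscle metabolism 9 and 2 of 13 and 9 and 1 of 13. The regulators gave 2 and 2 of 7 and 4 and 3 of 7. Their highest members in BAT were Mef2d, at 12.6 ± 1.9, 15.6 ± 0.92 and 14.3 ± 1.5 RPKM in iWAT, eWAT and BAT, and Mef2a, at 7.70 ± 1.2, 12.1 ± 1.2 and 4.96 ± 0.38. The membrane and junction genes (Dag1 and Sgcb highest in BAT) gave 4 and 3 of 10 and 7 and 2 of 9, the cardiac genes (Ryr2 and Myl4 highest in BAT) 3 and 2 of 5 and 4 and 1 of 5, and the smooth muscle genes (Tpm4 and Tagln highest in BAT) 1 and 5 of 10 and 5 and 3 of 10. Between the white depots, those higher in iWAT and those higher in eWAT were 2 and 3 of 7 regulators, 6 and 6 of 12 sarcomere genes, 5 and 5 of 11 coupling genes, 7 and 0 of 7 membrane genes, 7 and 1 of 12 metabolic genes, 2 and 1 of 3 cardiac genes and 6 and 2 of 9 smooth muscle genes.

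In the white depots other patterns appeared, and the genes set beside the muscle genes were chosen after their values were seen. The 6 iWAT samples fell into 2 sets for Ckm, 4 high and 2 low, so a pooled r is no measure of a shared course. It was at least 0.9 for 6 of 24 genes over the 6 samples and for 3 of 24 without iWAT 5 and 16, against 0.501% of 19376 genes over the 6. No share over all genes is given for the other 4, so the 3 of 24 have no background. The 6 were Myh4, Pvalb, Actn3, Mybpc2, Atp2a1 and Acta1. Myl1, Mb, Des, Casq1, Casq2 and Tpm1 were not low in both of iWAT 5 and 16. For Myl1 the values there were 4.27 and 7.10 RPKM, and for Casq1 1.45 and 1.19.

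With Cdh5, the VE-cadherin of endothelial cells, 3 of 25 genes (Des, Casq2 and Tpm2) had an r of at least 0.9 in iWAT adipocytes, against 10.2% of 19376 genes, so the count is near the background. Their values are given as a description. Cdh5 was at 62.5, 76.4, 84.7, 114, 151 and 177 RPKM in iWAT 16, 3, 2, 4, 1 and 5, and Des at 2.06, 2.35, 2.90, 3.13, 4.47 and 4.63 in the same samples. Casq2 was at 0.223, 0.313, 0.562, 0.788, 1.03 and 1.42 RPKM there. Pearson's r with Cdh5 was 0.98 for Des (rho = 1.0, exact permutation p = 0.00139, 0.053 after Benjamini-Hochberg adjustment), 0.98 for Casq2 (rho = 1.0, exact permutation p = 0.00278, adjusted 0.060) and 0.97 for Tpm2 (rho = 0.94, exact permutation p = 0.00278, adjusted 0.060). Without iWAT 5 and 16, the farthest from the median of Cdh5, r was 0.96, 0.94 and 0.92. The 5 endothelial genes summed to 101 to 287 RPKM in iWAT, 34.3 to 73.0 in eWAT and 70.7 to 102 in BAT, with none at 0, and their part in the result was not tested.

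With Adipoq, 3 of 16 genes (Acta1, Myl1 and Mb) had an r of at least 0.9 in eWAT adipocytes, against 9.95% of 19671 genes, and no adjusted p was under 0.05. They too are given as a description. Adipoq was at 150 and 199 RPKM in eWAT 3 and 1 and at 396 to 579 in the other 4, and Myl1 was at 0.849 and 0.886 in those 2 and at 1.76 to 3.07 in the others. Acta1 (1.09 and 1.46 against 2.22 to 4.77) and Mb (0.483 and 0.717 against 1.02 to 1.53) were split the same way. The r was 0.98 for Myl1 (rho = 1.0, exact permutation p = 0.00139, 0.054 after adjustment), 0.95 for Mb (rho = 0.71, exact permutation p = 0.0111, adjusted 0.088) and 0.92 for Acta1 (rho = 0.83, exact permutation p = 0.00972, adjusted 0.083). Without eWAT 1 and 3, r was 0.99 for Myl1 but 0.42 for Mb and 0.45 for Acta1, so for these 2 the relation rests on those samples. The 8 adipocyte genes summed to 3583 and 2627 RPKM in eWAT 1 and 3 against 5333 to 8106 in the others, and the 6 macrophage genes to 4134 and 4064 against 2564 to 2821, with none of either list at 0. Their part in the result was not tested. Ckm, in comparison, had 2 to 4 reads in each of the 6 eWAT samples.

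**Figure D5:**
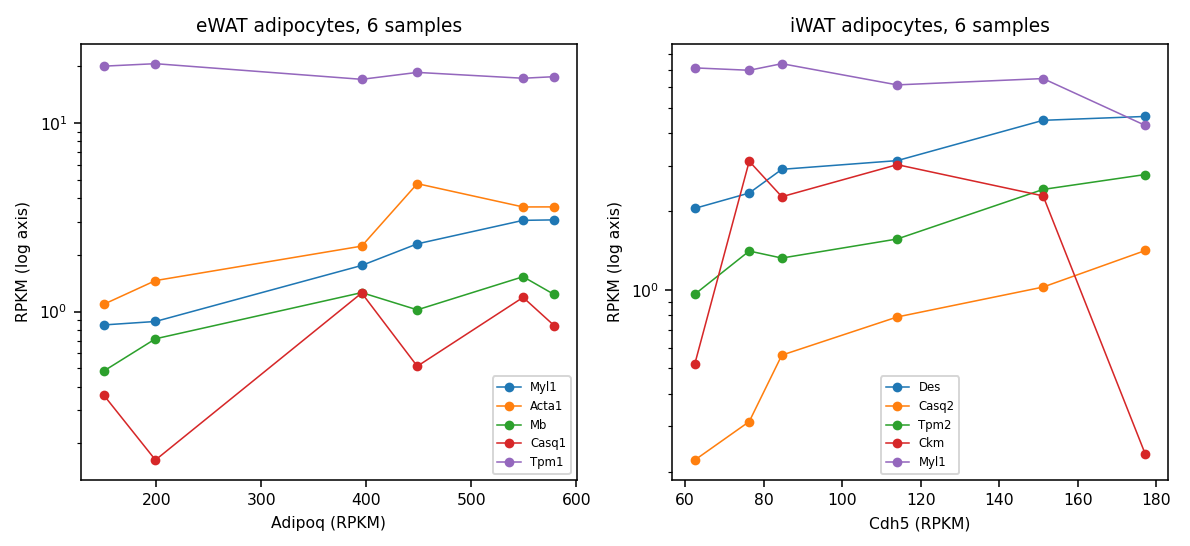
RPKM (log axis) of 5 genes against Adipoq in the 6 eWAT samples (left) and of 5 genes against Cdh5 in the 6 iWAT samples (right), joined in the order of the x axis. Myl1 climbs with Adipoq from 0.849 to 3.07 RPKM, and Des and Casq2 climb with Cdh5 while Ckm does not.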

How the data were processed

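RNA-seq was analysed for 6 iWAT adipocyte, 6 eWAT adipocyte and 6 BAT samples. One label field names regular chow, but titles and protocols name HFD, and the samples were taken as HFD. Libraries had been made with a NEBNext Ultra kit and sequenced on an Illumina HiSeq, in lanes 1 and 2 for white depots and 3 and 4 for BAT. The submitters' processing notes name cutadapt 1.16, HISAT2 2.1.0 and mm9. The counting program, its annotation and its use of strand are not given in the sources used here. The authors deposited, for each sample, a table of 53445 rows with read counts and RPKM values. Of several rows with 1 symbol, that with the highest mean RPKM was used, which among the 43 genes concerns Neb. Counts were tested with edgeR 4.0.16 (R 4.3.3, TMM scaling, quasi-likelihood F test) for genes whose counts averaged 10 or more in the 12 samples of a comparison, with Benjamini-Hochberg adjustment over all genes and a threshold of 0.05. The SE was the absolute log2 fold change over the square root of F. Where 1 tissue had at most 3 reads in every sample, a bound was computed with 3 reads per sample. Labels do not say that samples of 1 tissue came from separate mice, so p-values measure the spread between samples. RPKM values as deposited were used for levels and, as log2(RPKM + 0.1), for correlations, with exact two-sided permutation tests over 720 orders of 6 samples. Per-sample totals of 24655056 reads or more leave counting error small against the spread between samples except for genes of a few reads. Promoter windows came from the NCBIM37 genome, the build of the files, and exon overlaps from GENCODE vM1. DESeq2 1.42.0, limma 3.58.1, other scaling, filters and pseudocounts, a replicate block, lane terms and left-out samples were alternatives. The edgeR code was tested on simulated data. The members and lists were chosen with earlier results of these data known. Named were all 43 genes by role, with values for those with at least 1 RPKM in some tissue, the 3 largest changes each way per comparison, genes with an r under 0.5 with Ckm in BAT, the 2 highest genes of each other list (1 of them is not reported here) and the 10 other genes closest to Ckm. Leaving out BAT 2 and 17 or iWAT 5 and 16, single lanes, and the references Adipoq and Cdh5 were chosen after seeing the data.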

Additional observations from a re-analysis of the deposited data

Results flagged for a closer look

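Mb in iWAT 5 was at 2.17 RPKM and stood apart from the other iWAT samples, which lay between 3.26 and 3.84. Its gap to the nearest sample was 0.653 of the whole range, above Dixon's critical value for 6 samples. Of 41 sets of a gene and a tissue examined, this was the 1 past the limit, and chance gives about 1 in 20. Mb shares exon bases with Apol6, and the part of Apol6 reads in these values was not tested.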

How the results depend on the processing

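The counts of genes that differed from BAT stayed within 1.5 times under every alternative run, at 27 to 38 against 32 for iWAT and 31 to 41 against 33 for eWAT adipocytes, and with single samples left out at 30 to 34 and 29 to 34. For iWAT against eWAT adipocytes the count of 11 rose to 18 with limma at a pseudocount of 0.1, to 18 with limma at 1 and to 24 with no filter on low counts, where 24, 24 and 43 genes were tested in place of 20. It was 11 to 15 with single samples left out. Shares over all genes are not given for any alternative in this section, so its counts have no background. Without scaling beyond the total count, the median of all genes against BAT was 0.87 for iWAT and 0.89 for eWAT adipocytes. With limma at a pseudocount of 0.1 it was 0.54 and 0.48. Tpm1 in iWAT adipocytes against BAT changed sign to 0.32 without scaling beyond the total count, to 0.06 with limma at a pseudocount of 0.1 (0.0592) and to 0.06 with limma at 1 (0.0552). TMM factors averaged 1.35 in iWAT and 0.745 in BAT. The replicate block used only the title numbers found in both tissues, 4 for each comparison with BAT and 6 between the white depots. It gave 29, 32 and 15 genes, against 32, 33 and 11 in the same samples without it. With the block, Acta1 (log2 fold change of -2.54), Actn3, Ryr1, Casq2 and Pvalb did not pass in iWAT adipocytes against BAT, while Tnnt1 did. Casq2 did not pass in the same samples without the block either. In eWAT adipocytes against BAT, Casq1 did not pass with the block. Same-numbered samples correlated at -0.233 to 0.372. This cannot show whether they came from the same mouse, and the numbers were not taken as pairing in the main tests. The 23 genes that followed Ckm in BAT were 23 to 33 with single samples left out, with 33 of 39 without BAT 2 and 31 of 38 without BAT 17. Shares over all genes are not given for these smaller sets. With Adipoq as the reference gene 0 of 37 did, and with Cdh5 0 of 37. Counts of 3 reads or fewer limit what can be said of 17 genes in eWAT adipocytes. The cause of these changes was not tested.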
